A study of Mus musculus with 12 samples.

Results

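Described here are 7 noncoding RNA genes known from brain: Malat1, Neat1, Meg3, Rian, Miat, Snhg11 and Cdr1. They were chosen by symbol, as 7 of the 24020 rows of a gene count table from mouse hypothalamus, and each was taken up because of results already known from these libraries. Their differences between genotypes are therefore given as a description, with standard errors and no p-value. The tissue came from mice of the Wfs1tm1Koks strain, in which Wfs1, the gene of an endoplasmic reticulum membrane protein that is mutated in Wolfram syndrome, is disrupted. The 12 libraries come from 4 wild-type mice, 4 heterozygous mice with 1 mutant copy and 4 homozygous mice with both copies mutant, and every genotype is labelled with the same strain name. The sources used here give no age, sex or treatment, and the labels mention 5 hypothalamus animals where the design has 4. The count table carries a homozygous column numbered 5 that has no label of that number, so it was used as a homozygous library by its name alone; the homozygous sample labelled 3 matched no column and was not analysed here.

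Long noncoding RNAs are transcripts that act, where a function is known, as RNA. Some of those known from brain stay in the nucleus. Malat1 gathers in nuclear speckles, where splicing factors are stored, Neat1 builds the paraspeckles, and Miat forms a domain of its own that binds splicing factors. Meg3 and Rian are transcribed from the maternal chromosome of the imprinted Dlk1-Dio3 domain and host small RNAs, Snhg11 hosts small nucleolar RNAs, and the Cdr1 locus is known for a circular RNA transcribed antisense to Cdr1 that binds the microRNA miR-7.

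The sequences below show what distinguishes members that could be taken for a pair or that carry a repeated element. Malat1 (chr19:5795690-5802672, minus strand) and Neat1 (chr19:5824708-5845478, minus strand) lie 22 kb apart in mm10 and are both annotated by GENCODE M21 as long intergenic RNAs. Each has U-rich stretches and an A-rich tract, set in capitals, in the last part of the gene. These elements are known to form a triple helix that protects the transcripts ending there, which lack an ordinary poly(A) tail. The 95-base windows are chr19:5795982-5796076 for Malat1 and chr19:5824708-5824802 for Neat1, both read on the minus strand and written as DNA.
Malat1: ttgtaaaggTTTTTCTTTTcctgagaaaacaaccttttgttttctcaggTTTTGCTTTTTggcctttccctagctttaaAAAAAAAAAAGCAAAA
Neat1: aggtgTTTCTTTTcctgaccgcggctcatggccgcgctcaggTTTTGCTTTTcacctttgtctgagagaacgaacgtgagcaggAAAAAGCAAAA

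Miat (chr5:112213228-112229395, minus strand, on the same chromosome as Wfs1) is known for repeats of ACTAAC, the letters of the branch point that splicing factor SF1 binds. Its longest transcript, 9163 bases, held 11 copies on the transcribed strand, or 1.2 per kb, and the other members held 0 to 4. Among 4190 genes with a longest transcript of at least 5000 bases, 54.1% held the motif, the median was 0.106 per kb, and 2 genes reached the density of Miat, which is itself counted among them. The 120-base stretch at chr5:112216762-112216881, minus strand, holds 4 copies in capitals.
Miat: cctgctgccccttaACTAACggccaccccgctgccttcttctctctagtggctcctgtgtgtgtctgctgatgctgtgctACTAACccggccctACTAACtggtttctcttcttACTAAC

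Cdr1 (chrX:61184005-61185558, minus strand) is annotated as a protein-coding gene with 1554 bases of exon. The seed of miR-7, bases 2 to 8, is in capitals in the mature sequences from RefSeq (GRCm38.p6), and miR-671, which is known to cut the circular RNA, is shown beside it with its own seed.
mmu-miR-7a-5p: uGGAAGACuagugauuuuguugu
mmu-miR-7b-5p: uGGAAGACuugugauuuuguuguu
mmu-miR-671-5p: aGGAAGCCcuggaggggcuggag

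The match to the miR-7 seed, GTCTTCC, occurred 0 times on the annotated Cdr1 strand and 79 times on the opposite strand. The last 1554 bases of the longest transcript of each of 23495 other genes served as the background: 13.8% held a match, the highest number was 10, and 19 genes (0.0809%) held 3 or more. Other members held 0 (Malat1), 1 (Neat1, Miat) or 2 (Meg3, Snhg11, Rian) matches in their longest transcripts. A 150-base stretch of the opposite strand, chrX:61184282-61184431, plus strand, holds 8 matches in capitals.
opposite strand of Cdr1: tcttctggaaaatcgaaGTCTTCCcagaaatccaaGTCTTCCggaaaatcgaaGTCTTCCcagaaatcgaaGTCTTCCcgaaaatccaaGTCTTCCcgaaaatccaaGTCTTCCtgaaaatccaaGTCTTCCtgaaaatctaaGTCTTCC

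The spliced model C230004F18Rik-206, an antisense transcript of 7 exons and 3354 bases that covers all 1554 bases of Cdr1, held 123 matches. Outside the Cdr1 span it also held the site that pairs best with miR-671-5p, 19 of 23 bases, at chrX:61186029-61186051, plus strand, with the paired bases in capitals. A match describes the sequence and is no evidence that a microRNA bound it in this tissue.
C230004F18Rik-206: tTCCAGCatCTCCAGGGCTTCCa

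**Figure D1:**
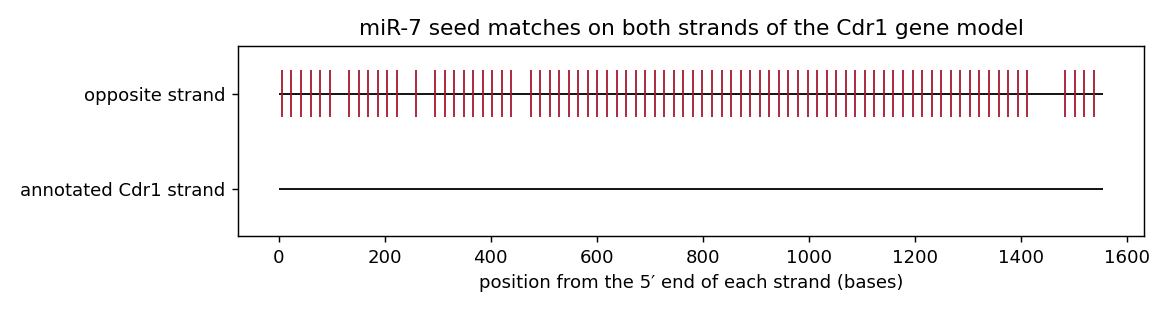
Positions of the 79 matches to the miR-7 seed along the Cdr1 gene model, in bases from the 5′ end of each strand; each line marks 1 match. All matches lie on the strand opposite to the annotated Cdr1 gene, which itself holds 0.

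The libraries held between 979394 and 2330872 counts, and all 7 members were among the 10737 genes with enough counts to be tested, with 28 to 48391 counts per library. Wfs1, the targeted gene, was measured at 114.4 to 167.2 CPM (counts scaled to a common library size, after correction for composition) in wild-type, 81.75 to 102.5 in heterozygous and 14.83 to 20.12 in homozygous libraries, so the labels and the target went together. All 10 hypothalamus markers had counts in some library, but Otp averaged 0.84 and 1.05 CPM in wild-type and heterozygous mice and 0 in homozygous mice. Of 7 pituitary markers, Gh and Prl were at 0 in every library. Pomc averaged 15.9, 13.1 and 6.86 CPM in wild-type, heterozygous and homozygous mice. Counts of Rn45s, the precursor of ribosomal RNA, differed widely: 1386, 1983, 1786 and 957.9 CPM in wild-type replicates 1, 2, 3 and 5, then 378, 788.3, 378.7 and 352.4 in heterozygous replicates 1 to 4, then 315.9, 352.4, 95.6 and 85.8 in homozygous replicates 1, 2, 4 and 5. Homozygous replicates 4 and 5 stood apart from 1 and 2, with the least Rn45s and the lowest mean GC content of counts (47.04% and 46.93%, against 47.73% to 48.55% in the other 10 libraries). Several values below moved when they were left out, and those are given with and without them for Malat1, Cdr1, Meg3 and Miat. Neuron markers differed with genotype as well, though not in 1 direction: 10 of 11 were in the table, 6 rose and 1 (Gad1) fell in homozygous mice. Their summed level ran from 5130 to 6560 CPM in wild-type, 6340 to 7620 in heterozygous and 7450 to 9760 in homozygous libraries. Snap25 alone averaged 2870, 3380 and 4370 CPM, while Rbfox3, Syt1 and Tubb3 did not rise. Sums of 10 oligodendrocyte markers ran from 3400 to 4250, 2810 to 4030 and 2360 to 3780 CPM, with 2 of the 10 (Ermn and Mal) up and 2 (Mag and Opalin) down. Astrocyte sums ran from 4370 to 5520, 4560 to 4960 and 5210 to 6690 CPM, with 2 of 8 markers up and 2 down. Sums of 8 endothelium and pericyte markers ran from 197 to 228, 180 to 207 and 159 to 182 CPM. Of 7 tested, 0 were up and 2 were down, the pericyte genes Vtn and Pdgfrb. The endothelial genes Pecam1, Slco1a4, Flt1, Cdh5 and Tek were not called. The part of these markers in the members' differences was not tested. In whole tissue a change in the number of cells of a type and a change in RNA per cell cannot be told apart.

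Malat1, the speckle RNA, was the most abundant row of the table in every library, and it was 1.86 times as high in heterozygous and 1.85 times as high in homozygous mice as in wild-type. It measured 9190, 10120, 9737 and 13830 CPM in wild-type replicates 1, 2, 3 and 5. It measured 20270, 14420, 25560 and 19630 CPM in heterozygous replicates 1 to 4, and 24260, 21730, 16330 and 17200 in homozygous replicates 1, 2, 4 and 5. Every mutant library lay above every wild-type library, and the mutant groups overlapped each other fully.

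The log2 difference of Malat1 was 0.90 (SE 0.152, 1.86-fold) in heterozygous and 0.89 (SE 0.152, 1.85-fold) in homozygous mice against wild-type, and -0.01 (SE 0.151) between the mutant groups. Malat1 took 0.955% to 1.45% of all counts in wild-type, 1.48% to 2.49% in heterozygous and 1.47% to 2.32% in homozygous libraries. Counting error is small at this depth: the 95% Wilson interval of the lowest wild-type share runs from 0.938% to 0.971%. Without homozygous replicates 4 and 5 the homozygous difference was 1.11, and without replicates 1 and 2 it was 0.65.

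Neat1, the scaffold of paraspeckles and the neighbour of Malat1, showed no such shift. It measured 45.7 to 70.9 CPM in wild-type, 54.9 to 82.7 in heterozygous and 31.6 to 89.2 in homozygous libraries. The homozygous libraries spread the most: 89.2 CPM in replicate 1, 43.6 in replicate 2, 54.4 in replicate 4 and 31.6 in replicate 5. All genotypes overlapped, and the log2 difference from wild-type was 0.22 (SE 0.226) in heterozygous and -0.01 (SE 0.232) in homozygous mice, the latter of either sign between analyses and 0.22 without homozygous replicates 4 and 5. Rows of Malat1 held 187, 222, 176 and 195 times the counts of Neat1 in wild-type replicates 1, 2, 3 and 5, against 225 to 465 in heterozygous and 272 to 544 in homozygous libraries. With 28 to 154 counts per library, Neat1 was the member measured least precisely.

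**Figure D2:**
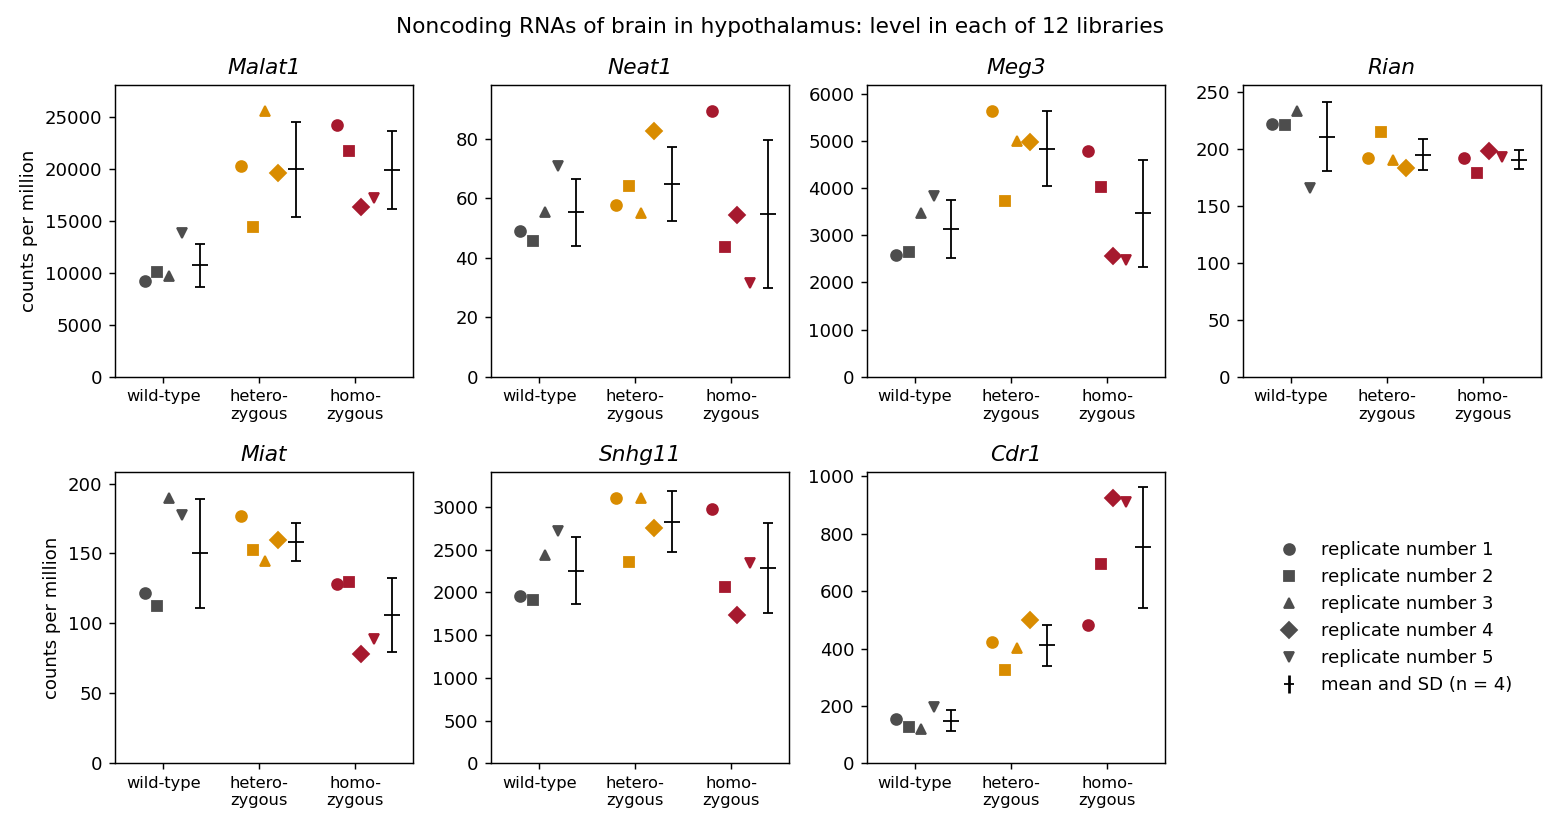
Level of each of the 7 noncoding RNAs in CPM on linear axes from 0, with 1 point per library, shape for the replicate number and bars for the mean and SD of 4 libraries. Malat1 and the Cdr1 row are higher in all mutant libraries than in any wild-type library, Rian is nearly level, and Meg3 and Miat are lower in homozygous replicates 4 and 5 than in 1 and 2.

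The row under the symbol Cdr1 showed the widest difference of the 7, and its level followed the number of mutant copies, with means of 149.2, 412 and 752 CPM. It measured 154, 125.6, 119.5 and 197.7 CPM in wild-type replicates 1, 2, 3 and 5, and 423, 325.8, 400.7 and 498.8 CPM in heterozygous replicates 1 to 4. In homozygous replicates 1, 2, 4 and 5 it measured 480.8, 693.6, 923.5 and 910 CPM. No mutant library overlapped the wild-type range, and homozygous replicate 1 alone fell inside the heterozygous range.

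The log2 difference was 1.46 (SE 0.187, 2.74-fold) in heterozygous and 2.32 (SE 0.190, 5-fold) in homozygous mice against wild-type, and 0.87 (SE 0.177, 1.82-fold) between the mutant groups. In the order of all 10737 tested genes from the highest log2 difference down, the Cdr1 row stood at place 3 in heterozygous and place 5 in homozygous mice. Without homozygous replicates 4 and 5 the difference between the mutant groups was 0.52 and that from wild-type was 1.98. Genotypes with more Cdr1 had less Rn45s. Among homozygous libraries, replicates 4 and 5 had more Cdr1 and less Rn45s than 1 and 2, while inside each of these pairs the library with more Cdr1 also had more Rn45s. With log2 Rn45s in the model the homozygous difference from wild-type was 1.15 in place of 2.32, and the part of Rn45s in the result cannot be told apart from genotype, because the wild-type and homozygous libraries do not overlap in it.

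Whether these counts came from Cdr1 itself or from the antisense transcripts cannot be told apart, since no source used here says whether the counting used strand. The separate row for the antisense gene C230004F18Rik, whose span covers Cdr1, was low and level: 6.558 to 15.4 CPM in wild-type, 9.844 to 18 in heterozygous and 11.29 to 15.65 in homozygous libraries, from 9 to 35 counts each. Its log2 difference in homozygous against wild-type mice was 0.16 (SE 0.294, edgeR adjusted p = 0.723). The Cdr1 row held 9.43 to 18.2 times the counts of the antisense row in wild-type, 22.3 to 50.7 times in heterozygous and 39.8 to 80.6 times in homozygous libraries.

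Meg3, an imprinted RNA of the Dlk1-Dio3 domain (chr12:109541001-109571726, plus strand), was highest in heterozygous mice and split inside the homozygous group. It measured 2584, 2644, 3463 and 3827 CPM in wild-type replicates 1, 2, 3 and 5, and 5626, 3727, 5004 and 4977 in heterozygous replicates 1 to 4. Homozygous replicates 1 and 2 measured 4791 and 4026 CPM, above all wild-type libraries, while replicates 4 and 5 measured 2568 and 2485, below all of them. The log2 difference from wild-type was 0.63 (SE 0.175) in heterozygous mice, where 3 of 4 libraries lay above the wild-type range, and 0.15 (SE 0.174) in homozygous mice. The homozygous value was 0.50 without replicates 4 and 5 and -0.30 without replicates 1 and 2, so its sign rests on which pair is kept.

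Rian, transcribed from the next stretch of the same domain (chr12:109603940-109661716, plus strand), was the most even member. It measured 222.2, 221.7, 233.2 and 166 CPM in wild-type replicates 1, 2, 3 and 5, then 183.1 to 215.2 in heterozygous and 178.7 to 198.5 in homozygous libraries. The coefficient of variation was 14.4%, 7.11% and 4.43% in the 3 genotypes, and the log2 difference from wild-type was -0.11 (SE 0.122) in heterozygous and -0.14 (SE 0.124) in homozygous mice. With an offset for GC content and transcript length the homozygous value was -0.53, and Rian was then called while Miat was not; GC content of the longest Rian transcript is 35.76%, the lowest of the 7.

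Meg3 and Rian thus did not keep a fixed ratio, although they lie 32.2 kb apart on the same strand. Meg3 held 11.6, 11.9, 14.9 and 23.1 times the counts of Rian in wild-type replicates 1, 2, 3 and 5, and 29.3, 17.3, 26.3 and 27.2 times in heterozygous replicates 1 to 4. In homozygous replicates 1 and 2 the ratio was 24.9 and 22.5, and in replicates 4 and 5 it was 12.9 and 12.9. Both genes host microRNAs. Of the RefSeq hairpins used here, 1 lay in Meg3 and 3 in Rian, each on the strand of its host. GENCODE also has a microRNA gene that overlaps Meg3, Mir1906-1, which was not among those hairpins. The 4 mature forms shown are from RefSeq, with the seed in capitals, as small products that these host transcripts carry. No 2 of these seeds are alike.
mmu-miR-770-3p (Meg3): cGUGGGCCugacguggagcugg
mmu-miR-341-3p (Rian): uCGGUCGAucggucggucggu
mmu-miR-1188-5p (Rian): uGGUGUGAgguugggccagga
mmu-miR-370-3p (Rian): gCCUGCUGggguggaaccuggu

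A list of 14 genes, some of the domain and some from the stretch around it, was tested, and 11 had enough counts. In homozygous against wild-type mice 0 rose and 2 fell (18.2% called, against 25.4% of all tested genes), with a median log2 difference of -0.15 against -0.03 over all genes. The 2 were Begain, a synaptic protein gene 473 kb from Meg3, at -0.63 (SE 0.182, edgeR adjusted p = 0.0134), and Wars, a tryptophan tRNA ligase gene. Wars, which was not among the tested genes within 500 kb of Meg3, was at -0.58 (SE 0.197, edgeR adjusted p = 0.0325). Without homozygous replicates 4 and 5, or with the GC and length offset, neither passed. Dlk1, the paternally expressed ligand, differed by 0.31 (SE 0.142, edgeR adjusted p = 0.118), Rtl1 by -0.37 (SE 0.250, edgeR adjusted p = 0.289) and Mirg, the third maternal noncoding RNA, by -0.57 (SE 0.343, edgeR adjusted p = 0.236).

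Miat, the nuclear RNA with the SF1 motif, was lowest in homozygous mice, chiefly in replicates 4 and 5. It measured 121.7, 112.3, 189.5 and 177.8 CPM in wild-type replicates 1, 2, 3 and 5, and 176.8, 152.2, 144.3 and 159.5 in heterozygous replicates 1 to 4. Homozygous replicates 1, 2, 4 and 5 measured 128.1, 129.3, 78.3 and 89.2 CPM. All homozygous libraries lay below all heterozygous libraries, replicates 4 and 5 also lay below the wild-type range, and replicates 1 and 2 lay inside it.

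The log2 difference of Miat was 0.07 (SE 0.171) in heterozygous and -0.49 (SE 0.176) in homozygous mice against wild-type, and -0.55 (SE 0.175) between the mutant groups. Without homozygous replicates 4 and 5 the difference was -0.23 from wild-type and -0.29 between the mutant groups, and without replicates 1 and 2 the latter was -0.92. With the GC and length offset the difference from wild-type was -0.17. Of 5 genes of proteins known to bind Miat, all tested, 0 rose and 1 fell in homozygous mice, with a median of -0.13. That share of 20% is near the 25.4% of all tested genes, of which 11.6% were lower. The gene that fell was Sf1, of the branch point binding protein, at -0.76 (SE 0.137, edgeR adjusted p = 0.000399).

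Snhg11 (chr2:158375638-158386145, plus strand, typed as protein-coding in GENCODE) is a neuronal host gene of small nucleolar RNA. It measured 1908 to 2716 CPM in wild-type, 2353 to 3102 in heterozygous and 1740 to 2981 in homozygous libraries. The genotypes overlapped throughout. The log2 difference from wild-type was 0.33 (SE 0.143) in heterozygous and 0.02 (SE 0.143) in homozygous mice, the latter of either sign between analyses.

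By edgeR's adjusted p under 0.05 over all tested genes, 3 members were called in homozygous against wild-type mice (Malat1 and Cdr1 higher, Miat lower), where 25.4% of all genes were, 13.7% higher and 11.6% lower. In heterozygous against wild-type mice 2 were called (Malat1 and Cdr1, higher), against 0.596% of all genes, 0.512% higher and 0.0838% lower. Between the mutant groups 1 was called (Cdr1, higher), against 2.2% of all genes, 1.74% higher and 0.456% lower. Libraries of the compared genotypes did not overlap for 2 members in homozygous against wild-type mice (Malat1 and Cdr1, higher), against 23.6% of all genes, 11.8% in each direction. They did not overlap for the same 2 in heterozygous against wild-type mice, against 9.34% of all genes, 4.77% higher and 4.57% lower, and for Miat, lower, between the mutant groups, against 9.48%, 5% higher and 4.48% lower. Nothing is read from these counts, since the same contrasts chose the members. Meg3 was called in heterozygous mice in 9 of 25 other analyses, among them DESeq2, no filter, these genotypes alone, the GC and length offset, and without either homozygous pair. The Miat call was lost in 17 of 25 other analyses, and the heterozygous Malat1 call was lost on leaving out any of 4 libraries, wild-type replicates 2 and 3 and heterozygous replicates 3 and 4, with values of 0.76 to 0.91.

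**Figure D3:**
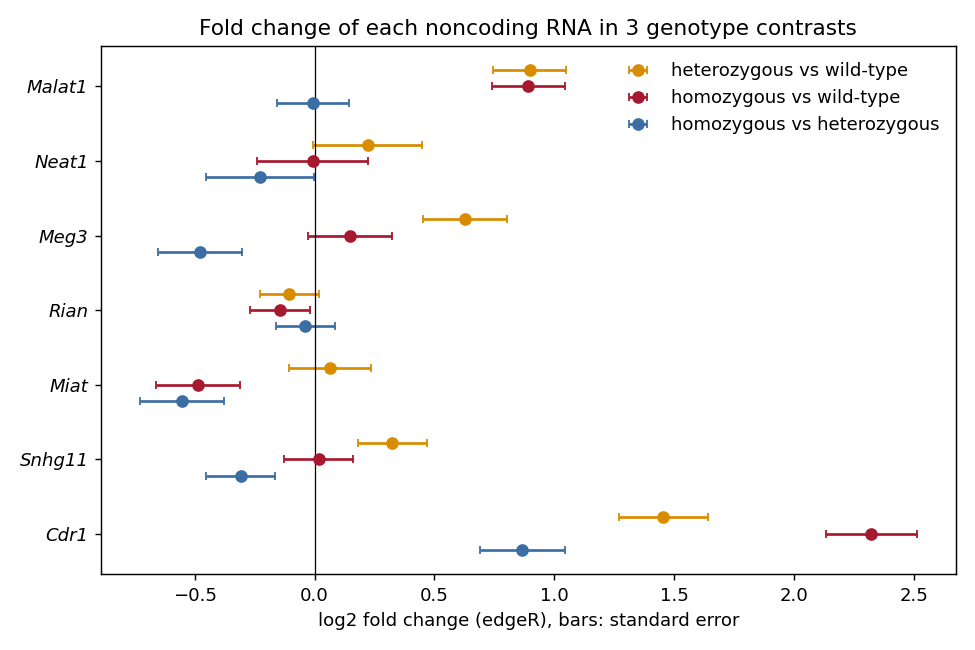
Log2 fold change with its standard error for each noncoding RNA in heterozygous and homozygous against wild-type mice and in homozygous against heterozygous mice, from edgeR. Malat1 stands near 0.90 in both mutant groups, the Cdr1 row at 1.46 and 2.32, and Meg3, Snhg11, Miat and Neat1 higher in heterozygous than in homozygous mice.

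With 0, 1 and 2 mutant copies, the heterozygous level can be set against the midpoint of wild-type and homozygous levels on the log2 scale. The heterozygous level was above the midpoint by 0.55 for Meg3 (SE 0.148), 0.45 for Malat1 (SE 0.128), 0.32 for Snhg11 (SE 0.122), 0.31 for Miat (SE 0.148), 0.29 for Cdr1 (SE 0.154) and 0.22 for Neat1 (SE 0.193). Rian lay at the midpoint, -0.03 (SE 0.106). The median over the 7 was 0.31, against 0.00 over all genes. Since the members were chosen with results of these data known, nothing is read from that comparison. Without homozygous replicates 4 and 5 the values were 0.38 for Meg3, 0.18 for Miat, 0.11 for Neat1 and 0.47 for Cdr1. By edgeR's adjusted p, 0 members and 1 of all genes (0.00931%) were called, and 454 of the 10737 tested genes had an unadjusted p under 0.05.

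Levels of different genes can be compared only per length, here as CPM per kb of annotated exon. In wild-type libraries the means ± SD (n = 4) were 1535 ± 301.6 for Malat1, 264.6 ± 45.79 for Snhg11, 173 ± 33.94 for Meg3 and 96 ± 22.94 for Cdr1. Miat, Rian and Neat1 were lower, at 16.17 ± 4.191, 11.56 ± 1.663 and 2.66 ± 0.5368. Miat and Rian differed by about their spread, and the other neighbours in this order by more than either SD. In homozygous libraries the mean of Cdr1, 483.9 ± 134.6, stood above those of Snhg11 at 267.9 ± 61.87 and Meg3 at 191.7 ± 62.54, while Miat at 11.43 ± 2.835 and Rian at 10.46 ± 0.4637 differed by less than the spread. With the longest transcript as the length, Rian (26.05) stood above Miat in wild-type libraries, so the order of these neighbours rests on the length used. In homozygous libraries Snhg11 was then at 389.3, a gap to Cdr1 below the SD of Cdr1.

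**Figure D4:**
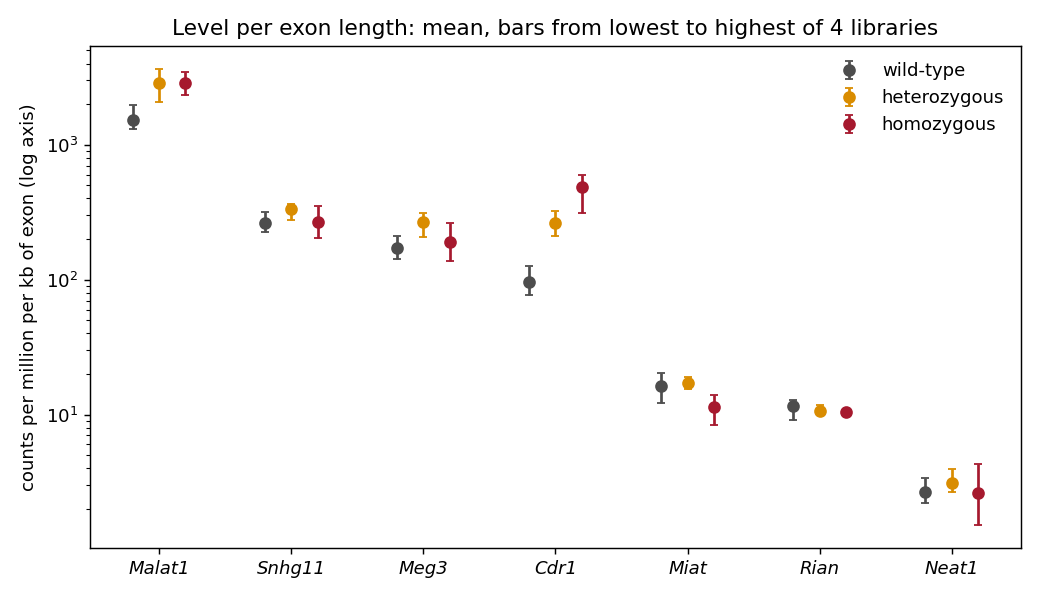
Level of each noncoding RNA in CPM per kb of exon on a log axis, by genotype; points are means of 4 libraries and bars run from the lowest to the highest. Malat1 stands at 1535 in wild-type, and the mean of Cdr1 lies above those of Snhg11 and Meg3 in the homozygous group, where its range overlaps that of Snhg11.

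Genes of proteins that work with these RNAs were tested as lists, at the level of RNA only. Like the Miat and Dlk1-Dio3 lists above, they were chosen with earlier results of these data known. Their shares and adjusted p-values are therefore a description. No listed gene was called in homozygous against wild-type mice once log2 Rn45s was in the model. Rn45s does not overlap between these genotypes, so its part cannot be told apart from genotype, and nothing is read from that loss. Over all lists together 46 genes were called there, and 34 without homozygous replicates 4 and 5. Of 30 nuclear speckle proteins, the compartment of Malat1, 29 were tested: 10 rose and 3 fell in homozygous mice (44.8%, against 25.4% of all genes), with a median log2 difference of 0.32 against -0.03. The splicing factors Pnn and Luc7l3 rose by 1.59 (SE 0.171, edgeR adjusted p = 2e-06) and 1.74 (SE 0.195, edgeR adjusted p = 3e-06), the kinase Clk4 by 1.01 (SE 0.172, edgeR adjusted p = 0.000249) and the export factor Thoc2 by 0.84 (SE 0.154, edgeR adjusted p = 0.000472). In heterozygous mice 2 of the 29 passed, against 0.596% of all genes: Pnn at 1.05 and Luc7l3 at 1.15 (edgeR adjusted p = 0.00678 and 0.0071).

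Of 19 paraspeckle proteins, 17 were tested, and 5 rose and 2 fell in homozygous mice (41.2%, median 0.22), while their scaffold RNA Neat1 differed by -0.01. Sfpq, which paraspeckles need for assembly, rose by 0.88 (SE 0.137, edgeR adjusted p = 9.8e-05), Pspc1 by 0.70 (SE 0.140, edgeR adjusted p = 0.000997) and Matr3 by 0.61 (SE 0.122, edgeR adjusted p = 0.00102). Cpsf6, a cleavage factor, fell by 0.77 (SE 0.165, edgeR adjusted p = 0.00176). Sfpq at 0.66 and Matr3 at 0.61 also passed in heterozygous mice (edgeR adjusted p = 0.0233 and 0.02).

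Around the Cdr1 locus, 8 of 16 miR-7 targets and machinery genes were tested, and 2 rose and 4 fell in homozygous mice (75%, median -0.14). Irs2, an insulin receptor substrate, fell by 1.07 (SE 0.215, edgeR adjusted p = 0.000985) and Fos, an activity gene, by 1.08 (SE 0.303, edgeR adjusted p = 0.0117). Pak1, a kinase, rose by 0.46 (SE 0.106, edgeR adjusted p = 0.00307) and Egfr by 0.94 (SE 0.228, edgeR adjusted p = 0.00442). Fos stands also among the immediate early genes, of which 0 rose and 3 fell of 7 tested (42.9%, against 25.4% of all genes), with Nr4a1 at -1.30 and Btg2 at -1.69 (edgeR adjusted p = 0.00201 and 0.00495). Of 8 proteins of circular RNA formation and turnover, 3 rose and 1 fell (50%, median 0.28, against 25.4% of all genes): the RNA editor Adar fell by 0.66, and the helicase Dhx9, the splicing regulator Mbnl1 and the exonuclease Xrn2 rose by 0.70, 0.56 and 0.67 (edgeR adjusted p = 0.00102, 0.00104, 0.00741 and 0.0175).

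Other noncoding RNAs did not share a direction. Of 17 tested from a list of 62, 3 rose and 1 fell in homozygous mice (23.5%, near the 25.4% of all genes, median -0.02). The host genes Gas5, Snhg4 and Snhg1 rose by 1.15, 1.11 and 0.96 (edgeR adjusted p = 0.000647, 0.00579 and 0.0108), and the imprinted Ipw fell by 1.38 (edgeR adjusted p = 0.0218). Of all 169 tested genes of a long noncoding type in GENCODE, 22 rose and 11 fell (19.5%, median 0.06). Among those averaging at least 10 CPM, B930025P03Rik, 2900052N01Rik, A830082K12Rik and 8430429K09Rik rose the most, by 1.93, 1.60, 1.47 and 1.41, and D030047H15Rik, 1700066J24Rik and Gm14164 fell the most, by 1.45, 1.42 and 1.20.

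Of RNA decay factors of the nucleus, 18 were tested, and 3 rose and 1 fell (22.2%, near the 25.4% of all genes, median 0.07): Skiv2l2, Rbm26 and Zfc3h1 by 0.94, 0.70 and 0.74, and Srrt at -1.08 (edgeR adjusted p = 0.000348, 0.000407, 0.000416 and 0.00174). Of 10 tested polycomb repressive complex 2 genes, whose protein complex Meg3 is known to bind, 1 rose and 1 fell (20%, also near the share of all genes, median 0.00), Suz12 at 0.69 and Rbbp4 at -0.47 (edgeR adjusted p = 0.00798 and 0.0205). In at least 1 other analysis besides that with Rn45s, Begain, Btg2, Fos, Ipw, Matr3, Mbnl1, Rbbp4, Snhg1, Suz12, Wars and Xrn2 no longer passed in homozygous mice. The heterozygous calls of Pnn, Luc7l3, Sfpq and Matr3 were each lost on leaving out some single libraries.

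Tested genes near the members were mostly not called. The counts of nearby genes leave out the members themselves, so Malat1, which rose in homozygous mice, is not counted around Neat1. Within 500 kb of Malat1, 34 other genes were tested, and 0 rose and 8 fell in homozygous mice, where 13.7% of all genes rose and 11.6% fell, and around Neat1 it was 0 and 9 of 35, largely the same stretch. Around Meg3 0 rose and 2 fell of 6, around Rian 0 and 1 of 5, around Miat 0 and 2 of 5, and around Snhg11 1 and 1 of 9. Near Cdr1 the antisense row was the only other gene tested.

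Genes elsewhere followed some members closely. Likeness was measured as the root mean square difference of centred log2 CPM over the 12 libraries among 9241 genes, a description that takes in differences of depth and composition that the libraries share. Nearest to Malat1 were Srek1, a splicing regulator (0.138), Mtap7d2 (0.183) and Lig1, a DNA ligase (0.185), where the spread of Malat1 itself was 0.490. Nearest to the Cdr1 row were Spata9 (0.236), Npm1, a nucleolar protein gene (0.304), and Ppig, a splicing-associated isomerase (0.311), against a spread of 0.999. Miat lay nearest to Mtch1 (0.119), Snhg11 to Lypd1 (0.111), Neat1 to Ddrgk1 (0.189) and Meg3 to Atp5o (0.194). Among the members themselves the nearest pair was Meg3 and Snhg11 (0.229), while Meg3 and Rian of 1 domain stood at 0.488 and the neighbours Malat1 and Neat1 at 0.542.

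**Figure D5:**
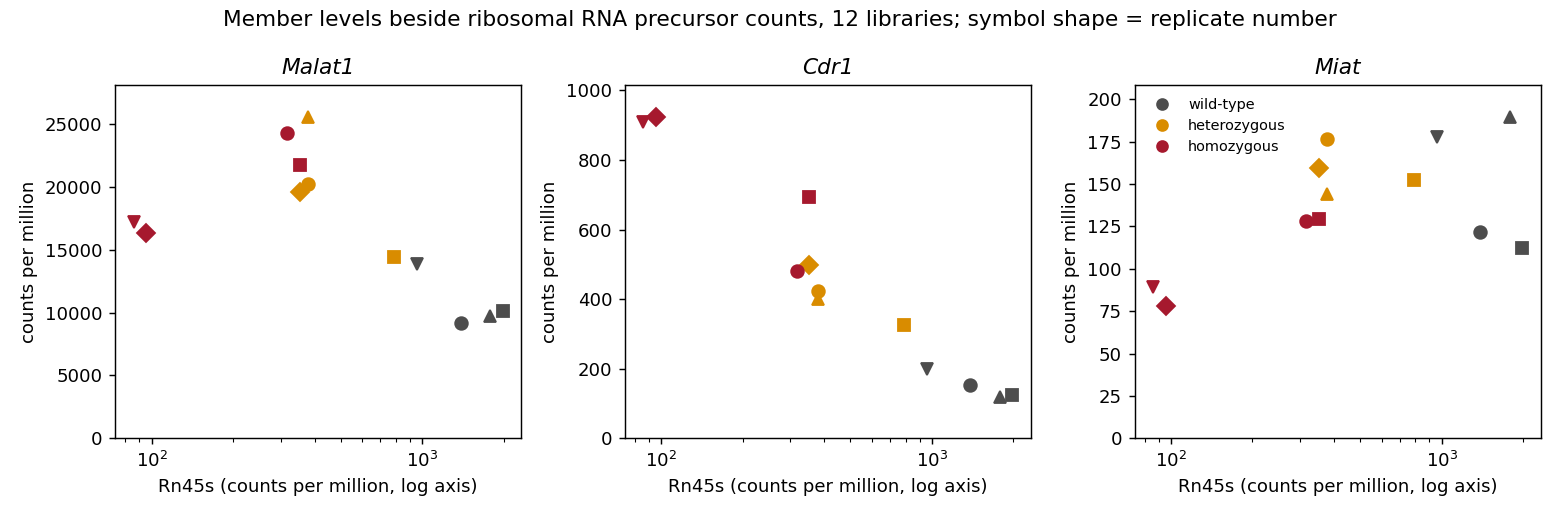
Levels of Malat1, the Cdr1 row and Miat in CPM against Rn45s CPM on a log axis, with 1 point per library, colour for genotype and shape for the replicate number. Cdr1 is highest where Rn45s is lowest, Malat1 is not, and homozygous replicates 4 and 5 lie apart at 95.6 and 85.8 CPM of Rn45s.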

How the data were processed

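Hypothalamus RNA of 12 mice was sequenced; per the labels' protocols cDNA was made from total RNA with the Ovation RNA-Seq System V2 and read on the SOLiD platform. The authors deposited whole-number read counts per gene symbol, not normalized; per the submitters' processing notes the build was mm10. For aligner, counter, annotation and strand setting: not given in the sources used here. Totals were 979394 to 2330872 counts per library, and intervals cover counting error only. Nothing in the labels says that libraries of a genotype are more than separate individuals, so p-values measure the spread between them.

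Counts were scaled by TMM (factors 0.908 to 1.08), filtered by filterByExpr to 10737 genes and tested with edgeR 4.0.16 (quasi-likelihood, genotype only, all 12 libraries, Benjamini-Hochberg adjustment) in R 4.3.3. DESeq2 1.42.0, limma-voom (limma 3.58.1), other scalings and filters, a replicate block, an Rn45s covariate, a GC and length offset and left-out libraries were alternatives; leaving out homozygous replicates 1 and 2 was added after the data were seen. Of 24020 symbols, 20717 matched GENCODE M21 by name and 1888 by an older symbol. On simulated counts for homozygous against wild-type (10544 genes), 29.6% of 1.5-fold, 79.2% of 2-fold and 100% of 4-fold changes were recovered, and 4.44% of calls were false.

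Members and lists were chosen with earlier results of these data known. Genes named are the members, Wfs1, Rn45s, up to 4 per list by smallest p in homozygous against wild-type mice, up to 4 noncoding genes a direction by size at 10 CPM or more, the 3 nearest in pattern, and neighbours.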

Additional observations from a re-analysis of the deposited data

Results flagged for a closer look

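Rian in wild-type replicate 5 stood apart from the other 3 wild-type libraries, at 166 CPM against 221.7 to 233.2, a gap that took up most of the range of the group. It was the only such value among 21 groups of 4 libraries examined (7 members in 3 genotypes), where chance gives about 1 in 20. Meg3 measured 3827 CPM in the same library, the highest of the wild-type group.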

How the results depend on the processing

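The homozygous differences of Malat1 and Cdr1 from wild-type kept their sign in 25 of 25 other analyses and were called in 24. They ran from 0.65 to 1.11 and from 1.15 to 2.61. The exception was the Rn45s covariate (0.94 and 1.15). Rn45s does not overlap between wild-type and either mutant genotype, so the results with this covariate cannot separate its part from genotype. With that covariate 1 gene, 0 members and 0 listed genes were called in homozygous against wild-type mice, 16 genes and 2 members (Malat1 and Cdr1) in heterozygous mice, and 1 gene and 0 members between the mutant groups. It turned Dhx9 to -0.0049, Xrn2 to -0.14, Mbnl1 to -0.18, Gm14164 to 0.24, Srrt to 0.12, Ipw to 0.69, Wars to 0.33, Rtl1 to 0.66, Mirg to 0.38, Rian to 0.0337 (0.0372 between the mutant groups), Neat1 to 0.26, Malat1 between the mutant groups to 0.0152, and Rn45s itself to 0.0056 and 0.0061.

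In heterozygous against wild-type mice the genes called numbered 280 with no filter, 246 with DESeq2, 41 with limma-voom, 382 with these genotypes alone, 153 with the GC and length offset, 430 without homozygous replicates 4 and 5 and 395 without 1 and 2; leaving out each library gave 3 to 218 genes and 1 to 3 members. Between the mutant groups they numbered 727, 494 and 44 with no filter, with DESeq2 and with these 2 genotypes alone, 1 on leaving out homozygous replicates 4 and 5 and 2721 without 1 and 2; leaving out each library gave 6 to 867 genes and 0 to 4 members. Members called there numbered 3 with no filter, 2 with DESeq2, 0 without replicates 4 and 5 and 4 without 1 and 2. Without replicates 4 and 5, 1344 genes were called in homozygous against wild-type mice. Leaving out each library gave 1856 to 3076 genes, 2 to 3 members and 39 to 52 listed genes there. Members off the midpoint numbered 2 with no filter and 4 without replicates 1 and 2. The cause was not tested.

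Values near 0 changed sign. Homozygous Neat1 was 0.0104 with RLE factors, 0.0174 with no filter, 0.0181 with the 1 CPM filter, 0.0187 with DESeq2, 0.22 without replicates 4 and 5, and -0.35 to 0.15 leaving out each library. Snhg11 was -0.055 with upper-quartile factors, -0.0016 with limma-voom, -0.12 with the GC and length offset, -0.14 without replicates 1 and 2, and -0.14 to 0.13 leaving out each library. Malat1 between the mutant groups was 0.0009 with RLE factors, 0.0060 with DESeq2, 0.0069 with limma-voom, 0.21 without replicates 4 and 5, and -0.13 to 0.14 leaving out each library. Meg3 was -0.30 without replicates 1 and 2 and -0.045 to 0.28 leaving out each library. Heterozygous Miat ran from -0.0386 to 0.20, and Rian between the mutant groups from -0.068 to 0.0139 and was 0.0043 without replicates 1 and 2. With the GC and length offset C230004F18Rik was -0.22, from -0.0277 to 0.34 leaving out each library, and Rian off the midpoint was 0.0255. With the longest transcript as length, wild-type levels per kb were 215.1 for Meg3, 384.6 for Snhg11 and 26.05 for Rian.

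The replicate numbers did not pair the libraries: over 9 pairs of the same number the correlation of deviations ran from -0.265 to 0.337, and 1 exceeded 0.1. With a replicate block 15 genes and 0 members were called between the mutant groups, Malat1 there was 0.0133, Rian 0.0226 and Cdr1 0.70. Depth limits Neat1 most, at 28 to 154 counts per library.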
